A study of Taeniopygia guttata with 169 samples.

Results

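A group of 49 genes was highest at day 18 in the bone marrow of control zebra finches. They were picked from 17292 genes by their mean log2(value + 1) in control birds: a highest age mean of at least 5, a difference of at least 1 between the highest and lowest age, and a day 18 mean at least 0.5 above each of the other 3 ages. Of the 2560 genes that met the level and range criteria, 290 were highest at day 18, and 49 of these reached the margin of 0.5. A limit of 150 genes was therefore not reached. All 49 passed the filter on low values, as did 14042 genes of the table in all.

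The series addresses how methylmercury (MeHg, an organic form of mercury) affects the blood-forming system of zebra finches. Bulk RNA of bone marrow was sequenced from birds labelled control (C) or Hg, the latter on food with 1.2 ppm MeHg, and euthanised at day 6, 18, 35 or 90. The table analysed holds 17, 21, 19 and 21 control libraries at these ages and 15, 25, 21 and 22 MeHg libraries, 78 and 83 in all, from 74 females and 87 males of 2 labelled cohorts. The strain and any exposure of the parents are not labelled per bird, although the series describes birds of varied exposure history. Libraries are counted as birds here, which the labels do not state outright, and p-values therefore measure the spread among libraries, which may be technical.

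Assigned reads ranged from 4572638 to 14968673 per library. RNA integrity (RIN) was lower at day 6, with a mean of 7.74 ± 0.464 (SD, n = 12) in MeHg birds against 8.66 ± 0.35 (SD, n = 18) at day 18, and was 8.89 and 8.86 at days 35 and 90. Of the controls, replicates 15 and 16 of day 90 stand apart and were left out when the genes were chosen. Replicate 7 of the day 90 MeHg birds was added to them. It was picked as the MeHg day 90 female farthest from its group's centre in a principal component analysis. These libraries lay below all of the other 40 day 90 birds at 18.7%, 14.9% and 19.4% of genes tested. All 3 are females of cohort 2, and some results on day 90 are given with and without them. Fitted differences between days 18 and 90 in MeHg birds are given only with replicate 7 for single genes and for sets. The margins in MeHg birds of both sexes were computed only with replicate 7.

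Bird marrow is the site where erythrocytes (which keep their nuclei in birds), thrombocytes and granulocytes are made, and it lies beside bone-forming cells and, in laying females, a calcium store of medullary bone. Young zebra finches grow fast in the nest and fledge at about the age of the second sampling, so the marrow changes while the skeleton and the blood volume are still growing. The deposited identifiers are Ensembl gene IDs, and neither the files nor the reference table used here pairs any of them with a symbol. Genes are named by identifier, without a role, and marker genes of marrow cell types could not be looked up. Fewer cells of a type and less RNA per cell cannot be told apart in bulk marrow.

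In control birds, which chose the genes, the margin of day 18 over the next age ranged from 0.51 to 1.41 on the log2 scale, with a median of 0.64, and 4 genes reached 1. The next highest age was day 35 for 36 genes, day 90 for 11 and day 6 for 2. The lowest age was day 6 for 43 genes and day 90 for the other 6. Day 18 means lay a median of 1.57 above day 6, 0.67 above day 35 and 0.83 above day 90. The typical profile in controls was a rise after day 6 to a maximum at day 18 and a partial decline by day 35.

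At the top of the ranking, ENSTGUG00000009893 had control values with a lowest, median and highest of 37.8, 125.4 and 1956 normalised counts at day 6. In birds of day 18 they were 59.4, 351 and 4205, in those of day 35 28.2, 113.7 and 2244, and in those of day 90 31, 116.2 and 2781. Its margin was 1.41, although the ranges of all ages overlapped. ENSTGUG00000024969 was the next, with a margin of 1.38 and a median of 47.5 normalised counts in day 18 controls. Its medians in controls of days 6, 35 and 90 were 5.07, 12.6 and 12.1. In MeHg birds, which the choice did not use, its median was 3.10 at day 6 and 49.3 at day 18, and the difference of 3.34 ± 0.498 (log2 ± SE) was the largest of the 49 genes against day 6.

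Just inside the margin of 0.5 were ENSTGUG00000011728 (0.51) and ENSTGUG00000023006 (0.51). Just outside were ENSTGUG00000008532 and ENSTGUG00000020788, with margins of 0.50 (0.497) and 0.49. The margin falls within a continuous run of genes, and the choice on either side of it depends on differences of a few hundredths on the log2 scale.

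The genes spanned a wide range of abundance, from a day 18 control mean of 5.07 to 17.1 on the log2(value + 1) scale, with a median of 8.94. Levels of different genes are not corrected for gene length. The highest was ENSTGUG00000010521, with 87195, 138054 and 259245 normalised counts as lowest, median and highest value of the day 18 controls. It took a median of 1.84% of all normalised counts in day 18 MeHg birds and 0.904% in day 6 MeHg birds. In MeHg birds its day 18 value exceeded that of days 6, 35 and 90 by 1.38 ± 0.193, 0.58 ± 0.154 and 0.88 ± 0.151 (log2 ± SE; limma, adjusted p = 6.81e-09, 0.00237 and 1.71e-06). ENSTGUG00000019810 came next, with 22681, 53233 and 142389 normalised counts in the day 18 controls.

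The lowest in abundance were ENSTGUG00000027730, with 17.4, 33.5 and 68.4 normalised counts in the day 18 controls, and ENSTGUG00000020169, with 9.83, 38 and 72.9. In MeHg birds ENSTGUG00000027730 was higher at day 18 than at days 35 and 90 by 0.68 ± 0.171 and 0.59 ± 0.168 (log2 ± SE; limma, adjusted p = 0.00143 and 0.00237). Its difference from day 6 was 0.25 ± 0.215 (adjusted p = 0.326).

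Together the 49 genes took a median of 1.63%, 4.24%, 3.16% and 2.55% of normalised counts in controls of days 6, 18, 35 and 90. In MeHg birds the medians were 1.66%, 3.97%, 3.09% and 2.84%. The shares in the controls follow from the choice of genes. Those in the MeHg birds, which the choice did not use, had the same order of ages. A large part of these shares was that of ENSTGUG00000010521 alone, with medians of 1.84% and 0.904% in MeHg birds of days 18 and 6.

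**Figure D1:**
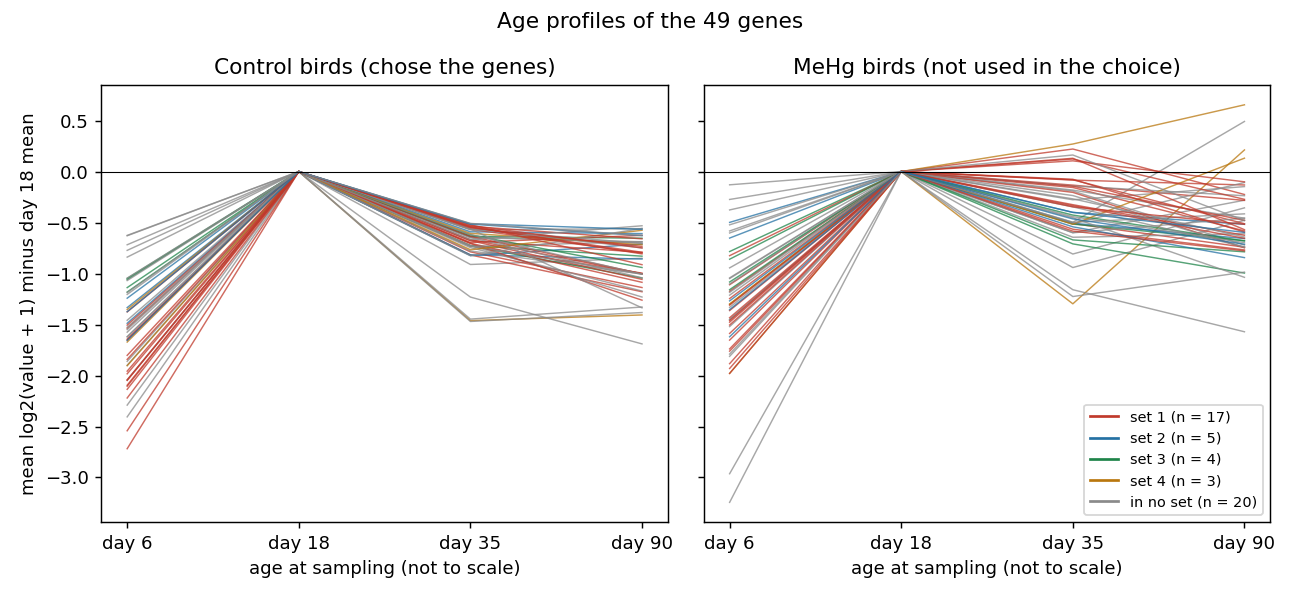
Mean log2(value + 1) of each of the 49 genes at days 6, 18, 35 and 90, less its own day 18 mean, in control birds (left) and MeHg birds (right); each line is 1 gene, coloured by set. In controls every line lies below 0 outside day 18 by construction, whereas in MeHg birds 9 of 49 genes had a mean above their day 18 mean at day 35 or 90. The MeHg means keep the day 90 bird that stands apart, and the control means leave out such libraries.

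The age differences of these genes were also computed in the MeHg birds alone, whose values did not choose the genes. This used limma across all 14042 genes tested, with sex, cohort and plate as covariates. MeHg birds were already known to follow the age course of controls over all genes. Counts above the share of all genes tested were therefore favoured by the choice, and the calls are a description, not independent support. Most of the genes were higher at day 18 than at day 6, about 1 in 2 were higher than at day 90, and fewer than 1 in 3 were higher than at day 35. None was called lower at day 18 than at days 6, 35 or 90, beside 27.6%, 17.3% and 26.5% of all genes tested. Day 18 had the highest MeHg mean for 40 of 49 genes (81.6%), against 24.7% of all genes tested, while day 35 was highest for 5 and day 90 for 4. These means kept the day 90 MeHg bird that stands apart.

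Against day 6, 36 of 49 genes (73.5%) rose to day 18 in MeHg birds at an adjusted p under 0.05, beside 28.4% of all genes tested. The median log2 difference of the 49 genes was 1.3, a 2.45-fold difference, and the values ran from -0.08 to 3.34. Over all genes tested the median was 0.02. At least 2-fold higher values were found for 35 genes, beside 7.45% of all genes tested, and 48 of 49 differences were above 0, beside 51.6%. RIN also differed between these ages, and with RIN as a further covariate, in the libraries that have one, 33 genes were called, beside 22.7% of all genes tested. Males and females alone gave 19 and 32 genes, beside 12.1% and 17.8%, and cohorts 1 and 2 alone 26 and 33, beside 18.5% and 18.3%.

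Against day 35, 15 of 49 genes (30.6%) were called higher at day 18, beside 15.9% of all genes tested. The median difference was 0.43 (range -0.30 to 1.29), against -0.03 over all genes tested, and 43 of 49 differences were above 0, beside 46.1% of all genes tested. Within cohort 1 alone 8 genes were called, and within cohort 2 alone 2, with 8.8% and 1.3% of all genes tested. The step was called for 14 genes in males alone and for 6 in females alone (12.5% and 2.86% of all genes tested).

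Against day 90, 26 of 49 genes (53.1%) were called higher at day 18, beside 23.2% of all genes tested. The median difference was 0.61 (range -0.60 to 1.65), against -0.04 over all genes tested, and 45 of 49 differences were above 0, beside 46.4% of all genes tested. Without the MeHg bird of day 90 that stands apart, 25 genes were called, beside 24.2%. Within cohort 1 alone 10 genes were called and within cohort 2 alone 17, beside 11.5% and 11% of all genes tested. In males and females alone 23 and 10 were called, beside 19.5% and 9.02%.

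A full peak, with day 18 higher than each of the other 3 ages, was called for 9 genes in MeHg birds (18.4%), beside 5.77% of all genes tested. A further 16 genes were called in 2 of the 3 comparisons, 18 in 1 and 6 in none. Shares of all genes tested are not given for these counts. Single comparisons with days 6, 35 and 90 were called upward for 28.4%, 15.9% and 23.2% of all genes tested. The weakest of the 3 differences was that against day 35 for 31 genes, against day 90 for 12 and against day 6 for 6. In subsets with fewer birds, the full peak was called for 3 genes in females alone, 10 in males alone, 4 in cohort 1 alone and 2 in cohort 2 alone, beside 0.527%, 2.3%, 2.36% and 0.328% of all genes tested.

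The same criteria applied to MeHg columns chose 59 genes, of which 8 were among the 49. These MeHg means kept the day 90 bird that stands apart, whereas the control means left out such libraries. MeHg margins without that bird were not computed. The margin of 0.5 was reached in MeHg birds by 10 of the 49 genes, and the median margin was 0.28. The 4 genes with control margins of at least 1 had MeHg margins between -0.49 and 0.48. Since high control margins were selected, lower margins in MeHg birds are favoured by the choice, and its part in them was not tested.

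**Figure D2:**
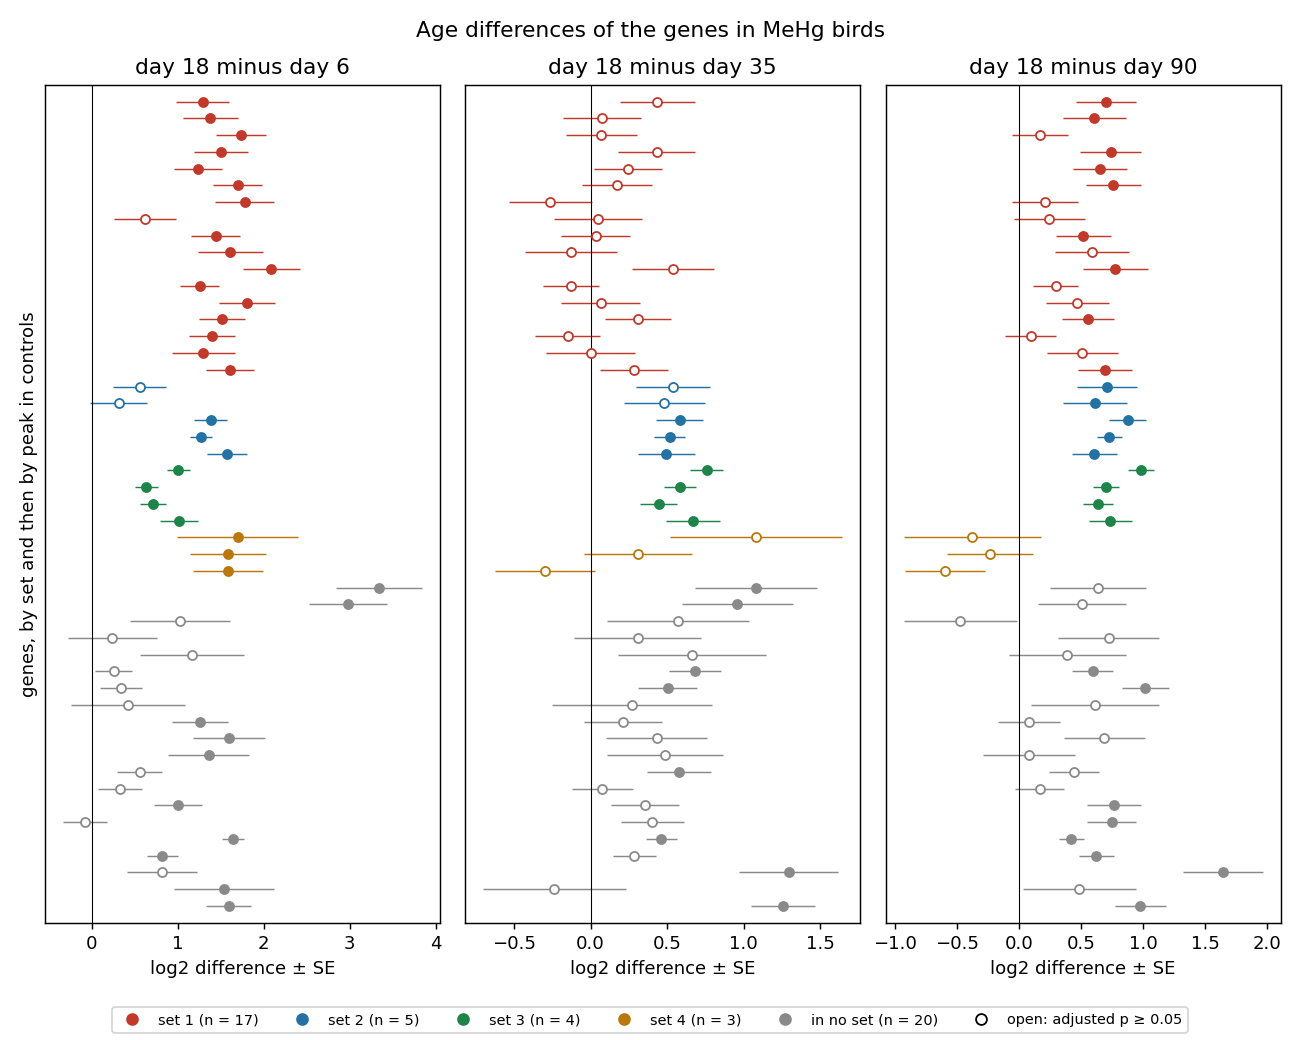
Log2 difference of day 18 from day 6, day 35 and day 90 in MeHg birds for each of the 49 genes, with standard errors (limma; 15, 25, 21 and 22 libraries at days 6, 18, 35 and 90); filled points have an adjusted p under 0.05. Filled points number 36, 15 and 26 from left to right, and in the middle panel none belongs to set 1.

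The peak in MeHg birds was largest for ENSTGUG00000023006 by the smallest of its 3 differences. Its lowest, median and highest values were 36, 89.9 and 184 normalised counts in the youngest birds and 106.7, 265 and 831 in those of day 18. They were 43.8, 118.5 and 366 in birds of day 35 and 44.1, 151.99 and 417 in the oldest. All ages overlapped in range, and the day 18 median lay above the other medians. The differences were 1.59 ± 0.261, 1.26 ± 0.208 and 0.98 ± 0.205 (log2 ± SE) against days 6, 35 and 90, with limma adjusted p of 3.63e-07, 4.89e-06 and 5.32e-05. This gene had the lowest control margin of the 49.

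ENSTGUG00000020222 had MeHg medians of 34.9, 60.1, 28.6 and 19.5 normalised counts at days 6, 18, 35 and 90, with a range of 20.7 to 275 at day 18 and of 3.74 to 155.7 at day 6. Day 18 was higher than day 35 by 1.29 ± 0.324 and than day 90 by 1.65 ± 0.319 (log2 ± SE; limma, adjusted p = 0.00143 and 1.47e-05). Against day 6 the difference was 0.82 ± 0.408 (adjusted p = 0.0801).

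At the other end, ENSTGUG00000026616 had MeHg medians of 7.46, 24.1, 25.8 and 46.5 normalised counts, and its range at day 18 (3.72 to 192) contained that at day 90 (6.91 to 128.4). The gene was higher at day 18 than at day 6 by 1.58 ± 0.412 (log2 ± SE; limma, adjusted p = 0.000778). Its differences from days 35 and 90 were -0.30 ± 0.328 and -0.60 ± 0.323, with adjusted p of 0.514 and 0.115. ENSTGUG00000025044 had MeHg medians of 172.8, 481, 301 and 867 normalised counts and a difference of -0.48 ± 0.457 from day 90 (adjusted p = 0.399). In cohort 2 alone that difference was 0.10 (adjusted p = 0.927).

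Individual birds overlapped for nearly all genes. The range at day 18 lay wholly above that at day 6 for 1 gene in MeHg birds, beside 0.712% of all genes tested, and for 0 genes above that at day 35 or day 90, beside 0% and 0.00712%. That gene was ENSTGUG00000000598, chosen for mention here after its values were seen, with 1506 to 4532 normalised counts at day 18 and 453 to 1290 at day 6. For the median gene, 96% of the day 18 MeHg birds lay above the day 6 median, 68% above the day 35 median and 76% above the day 90 median.

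The spread between birds of 1 group was wide for many of these genes. At day 18 in MeHg birds the SD of log2(value + 1) had a median of 0.82 over the 49 genes, against 0.43 over all genes tested, and it was at least 1 for 17 genes (9.64% of all genes tested). It was narrowest for ENSTGUG00000001014 (SD 0.37) and ENSTGUG00000000428 (SD 0.38). Both had a full peak in MeHg birds: ENSTGUG00000001014 had medians of 1273, 2793, 1641 and 1290 normalised counts at days 6, 18, 35 and 90, with a day 18 range of 1518 to 3955. Its day 18 value exceeded that of days 6, 35 and 90 by 1.01 ± 0.137, 0.76 ± 0.109 and 0.98 ± 0.107 (log2 ± SE; limma, adjusted p = 3.29e-09, 3.29e-07 and 1.11e-11).

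The spread was widest for ENSTGUG00000010259 (SD 1.85), with 3.86, 57.8 and 468 normalised counts as lowest, median and highest value at day 18, and for ENSTGUG00000009893 (SD 1.76), with 58.6, 380 and 4786. Neither had a full peak in MeHg birds. ENSTGUG00000009893, which headed the ranking in controls, differed between days 18 and 90 by -0.38 ± 0.555 in MeHg birds (log2 ± SE; limma, adjusted p = 0.594), and its MeHg median at day 90 was 444 normalised counts.

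**Figure D3:**
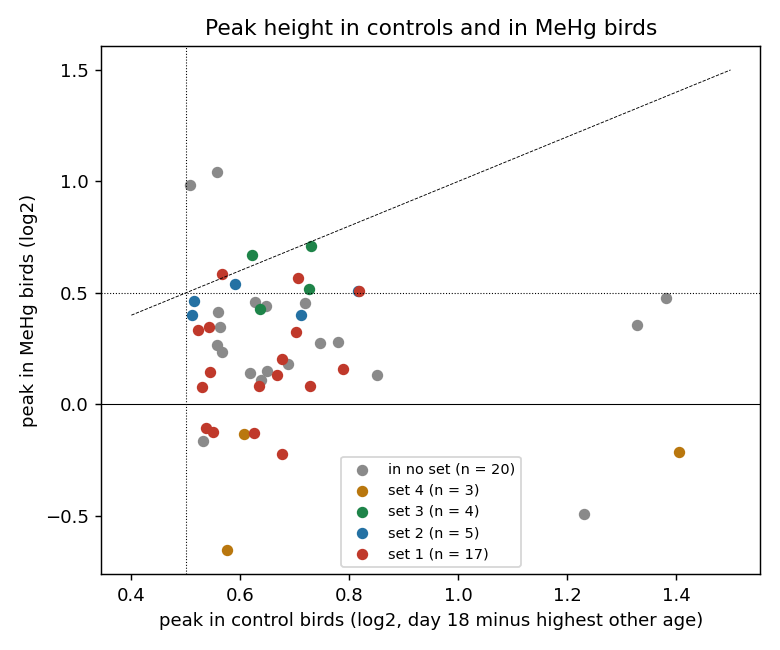
Margin of day 18 over the highest other age in control birds (horizontal) and in MeHg birds (vertical), both as differences of mean log2(value + 1), for the 49 genes coloured by set; dotted lines mark 0.5 and the dashed line equal margins. All genes lie right of 0.5 by construction, 10 reach 0.5 in MeHg birds and 9 lie below 0. The MeHg margins keep the day 90 bird that stands apart, and the control margins leave out such libraries.

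The genes did not vary as a single block between birds of the same group. After the mean of each treatment-by-age group was removed, the median Pearson r over all pairs of the 49 genes was 0.0556 across 76 control and 82 MeHg libraries (without the 3 that stand apart), and over all pairs of genes tested it was -0.003. Average-linkage clustering, stopped at a mean r of 0.4, gave 4 sets of 3 or more genes and left 20 genes in none. These sets were formed after the values were seen, and what follows describes them without a test of the sets. The libraries share plates and extraction batches and differ in depth, and the part of these in the correlations was not tested.

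Set 1 held 17 genes with a median r of 0.59 (range 0.224 to 0.907). In control birds alone all 17 fell in 1 cluster, and in MeHg birds alone 14 did. That cluster of control birds held 20 genes. Sets 2, 3 and 4 held 5, 4 and 3 genes, with a median r of 0.583, 0.525 and 0.50. In control birds alone, at most 4, 1 and 2 genes of sets 2, 3 and 4 shared a cluster, and in MeHg birds alone 5, 4 and 3. In the controls those 2 genes of set 4 lay in the cluster of 20 that held set 1. The 4 genes of set 3 fell in separate clusters there, although their median r in control birds was 0.457. Genes of set 1 had a median r of -0.141 with those of set 2, and of 0.291 with those of set 4. Sets 2 and 3 had a median r of 0.367 with each other. Set 1 genes were abundant, with a median day 18 control mean of 12.9 on the log2 scale, against 6.59 for the other 32 genes.

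**Figure D4:**
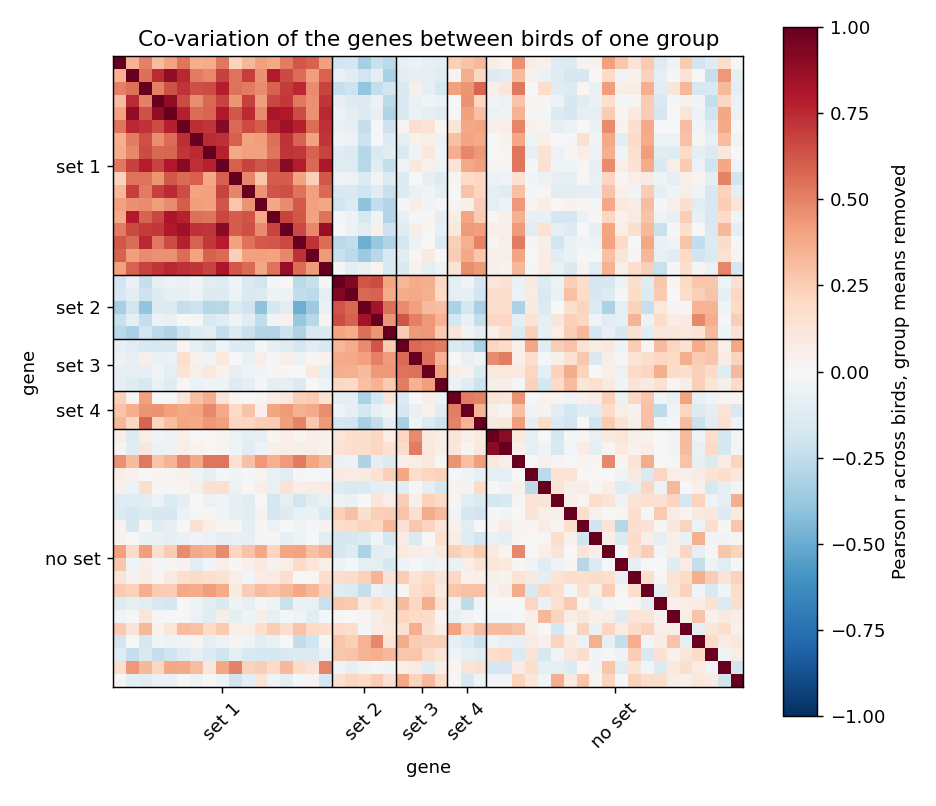
Pearson r between each pair of the 49 genes across 76 control and 82 MeHg libraries, after removal of the mean of each treatment-by-age group, ordered by set. The block of 17 genes at the upper left has a median r of 0.59, and the 20 genes in no set, at the lower right, have a median r of 0.0477.

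The closest pairs were ENSTGUG00000017747 with ENSTGUG00000017705 (r = 0.922) and ENSTGUG00000020291 with ENSTGUG00000013284 (r = 0.907). The correlation of near-identical copies can come from shared reads, and such copies could not be recognised without sequences or positions.

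The MeHg calls of each set are given as a description, and differences between sets were not tested. Over all genes tested, 28.4%, 15.9% and 23.2% were called higher at day 18 than at days 6, 35 and 90, and 5.77% had a full peak. In set 1, 16 of 17 genes rose from day 6 to day 18, with a median difference of 1.5, and 9 were higher at day 18 than at day 90, with a median of 0.56. The day 90 MeHg bird that stands apart, low in set 1, was kept in these calls. The mean over set 1 in day 90 MeHg birds was 11.09 with it and 11.23 without it, against 11.59 at day 18. Against day 35, 0 of 17 were called, with a median of 0.07, so none had a full peak. All 4 genes of set 3 and 3 of the 5 genes of set 2 had a full peak. The other 2 full peaks belonged to genes in no set. Genes of set 4 were all higher at day 18 than at day 6, and none was called against days 35 or 90. The 32 genes outside set 1 had median differences of 1.02, 0.50 and 0.62 from days 6, 35 and 90.

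In single birds, the mean log2(value + 1) over set 1 had a lowest, median and highest value of 8.98, 10.0 and 11.7 in day 6 MeHg birds. In day 18 birds these were 10.0, 11.6 and 12.9, in day 35 birds 10.4, 11.4 and 12.5, and in day 90 birds 8.18, 11.2 and 11.9. Without the bird that stands apart the day 90 values were 10.8, 11.3 and 11.9. The ranges of days 18 and 35 overlapped almost fully. Over the other 32 genes the values were 6.17, 6.52 and 6.93 in day 6 birds and 7.07, 7.72 and 8.27 in day 18 birds. They were 6.70, 7.31 and 7.72 in day 35 birds and 6.69, 7.2 and 7.70 in day 90 birds. For these genes day 18 birds lay wholly above day 6 birds and overlapped the older ages in part.

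Control birds of day 6 varied most in set 1, from 6.88 to 12.0 with an SD of 1.39 (n = 17), against an SD of 0.568 (n = 21) in day 18 controls. Over the other 32 genes the SD of the day 6 controls was 0.277. RIN also varied most in day 6 controls (SD 0.703, n = 15), and its part in the spread of set 1 was not tested.

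The 3 day 90 females that stand apart, of which MeHg replicate 7 was picked by its distance in these same data, had low values of set 1. Its mean was 7.75 and 8.27 in control replicates 15 and 16 and 8.18 in MeHg replicate 7, below the range of 9.97 to 12.0 (median 11.1) of the other 40 day 90 birds. In all 3 of them, 15 of the 49 genes lay below every other day 90 bird, all of them in set 1, beside 9.42% of all genes tested. The 3 females, in the same order, lay above all of the other 40 birds at 2, 3 and 6 of the 49 genes. The shares of all genes tested were 14.8%, 10.6% and 13.5%. Over the other 32 genes their means of 6.95, 7.07 and 7.22 lay within the range of the other birds, 6.43 to 7.70. Their RIN values were 9.4, 8.7 and 9.7, and their reads 5901399, 5822865 and 7222967.

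**Figure D5:**
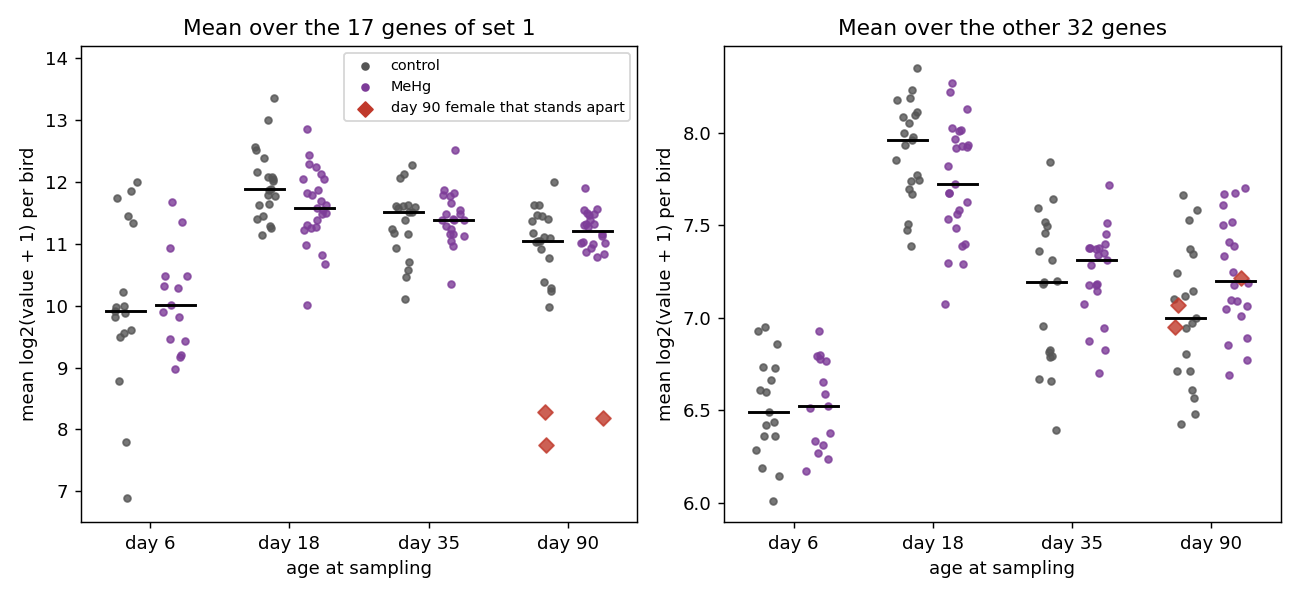
Mean log2(value + 1) per bird over the 17 genes of set 1 (left) and over the other 32 genes (right) by age, for control (grey) and MeHg (purple) birds; black bars are group medians and red diamonds the 3 day 90 females that stand apart. In the left panel the diamonds lie between 7.75 and 8.27, below all other day 90 birds, and in the right panel they lie among them.

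MeHg and control birds were compared at each age in 1 fit over all libraries. Since the controls chose the genes for high day 18 values, lower MeHg values at day 18 are favoured by the choice, and these values are a description. At day 18, 38 of 49 genes were lower in MeHg birds, beside 6998 of the 14042 genes tested. The median difference of the 49 was -0.24, with a median standard error of 0.28 on the log2 scale. Over all genes tested the median was 0.00 (0.000542). None of the 49 was called with limma (lowest adjusted p = 0.138), beside 0.128% of all genes tested, and edgeR and DESeq2 also called 0. At an unadjusted p under 0.05 there were 12 of the 49 (24.5%), beside 11.4% of all genes tested. The MeHg minus control difference in peak height was below 0 for 43 of 49 genes, with a median of -0.35, beside 7055 of the 14042 genes tested. None was called (limma, lowest adjusted p = 0.716), beside 0% of all genes tested, and edgeR and DESeq2 called 0. For edgeR and DESeq2 the shares of all genes tested are not given at day 18 or for peak height. At an unadjusted p under 0.05 there were 9, beside 6.51% of all genes tested.

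At days 6, 35 and 90 the choice favours low control values, and so higher MeHg values, and these comparisons too are a description. For the 49 genes limma called 0 at each of these ages, beside 0.0356%, 0.0783% and 0.199% of all genes tested. At an unadjusted p under 0.05 there were 4, 2 and 8 (8.16%, 4.08% and 16.3%), beside 5.68%, 8.88% and 15.2% of all genes tested. Median differences were 0.01, 0.06 and 0.22. Without the 3 libraries that stand apart the median at day 90 was 0.10, with 0 genes called. Both edgeR and DESeq2 passed 1, 0 and 2 of the 49 at these ages, with higher MeHg values. The shares of all genes tested were 0.192%, 0.199% and 0.52% with edgeR and 0.342%, 0.427% and 1.2% with DESeq2. The largest difference at day 90 was that of ENSTGUG00000025044, with a median of 867 normalised counts in MeHg birds (range 96.7 to 6913) and 171.1 in controls (range 38 to 1619). It was 1.81 ± 0.477 (log2 ± SE), with a limma adjusted p of 0.0617, and 1.76 ± 0.492 (adjusted p = 0.106) without the 3 libraries. With all libraries the other tests called it, at 2.07 with edgeR (adjusted p = 0.0288) and 2.11 ± 0.433 with DESeq2 (adjusted p = 0.00185). This gene was selected with a control margin of 1.23 over the next highest age, so that low day 90 control values were part of the choice.

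With the 4 ages averaged, 3 of 49 genes passed the threshold, beside 7.48% of all genes tested, and 3 did without the libraries that stand apart, beside 7.73%. The controls of all ages entered the choice of genes. ENSTGUG00000026177 had a lowest, median and highest value of 1.74, 37.6 and 108.2 normalised counts in the 78 control birds and of 0, 18.3 and 110.7 in the 83 MeHg birds. It was lower in MeHg birds by -0.71 ± 0.194 (log2 ± SE; limma, adjusted p = 0.010). ENSTGUG00000010570 had 111.6, 420 and 2613 normalised counts in controls and 83.9, 295 and 2200 in MeHg birds, a difference of -0.54 ± 0.162 (adjusted p = 0.0246). ENSTGUG00000020222 was higher, with 3.74, 31.5 and 275 normalised counts in MeHg birds and 4.50, 22.9 and 209 in controls, a difference of 0.51 ± 0.158 (adjusted p = 0.0306). The treatments overlapped widely in all 3 genes. When libraries that share a title code within a cohort were treated as correlated, 0 were called, beside 3.06% of all genes tested. Tests by edgeR and DESeq2 called 5 each, beside 7.36% and 8.57% of all genes tested. Within cohort 1 alone and cohort 2 alone 1 and 2 genes were called, beside 4.22% and 2.83%, and within males and females alone 0 and 1, beside 1.76% and 0.491%.

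Sex was not used to choose the genes. Of 49 genes 1 was called between males and females over all ages, beside 8.08% of all genes tested, and 1 at day 18, beside 4.65%. Both calls were of ENSTGUG00000000598, with a lowest, median and highest value of 669, 2103 and 4969 normalised counts in 87 males and of 453, 1437 and 2927 in 74 females. It was higher in males by 0.56 ± 0.0567 over all ages (log2 ± SE; limma, adjusted p = 2.55e-16) and by 0.55 ± 0.108 at day 18 (adjusted p = 4.01e-05).

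Day 18 had the highest mean for 38 of 49 genes in MeHg males, beside 24.7% of all genes tested, and for 29 of 49 in MeHg females, beside 22.1%. In MeHg males (6, 16, 11 and 14 birds at the 4 ages) the median gene lay 1.26, 0.55 and 0.58 above days 6, 35 and 90 on the log2 scale. In MeHg females (9, 9, 10 and 7 birds, without the one that stands apart) the medians were 1.19, 0.13 and 0.29. The difference between the sexes in the step from day 35 was tested by an interaction: its median over the 49 genes was 0.57, and 35 were larger in males. None was called (limma, lowest adjusted p = 0.228), beside 0.057% of all genes tested, and 8 had an unadjusted p under 0.05, beside 12.2%. For the steps from days 6 and 90, 0 genes were called, beside 0% and 0.00712% of all genes tested. There were 2 and 1 at an unadjusted p under 0.05, beside 3.85% and 7.68%.

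Between cohorts 8 of 49 genes were called, about the same share as the 16% of all genes tested, so the 49 genes did not stand out. Of these, 5 were higher in cohort 2 and 3 lower, beside 8.45% and 7.55%. ENSTGUG00000023486 had 557, 1241 and 2720 normalised counts as lowest, median and highest value in the 88 birds of cohort 2 and 495, 931 and 2995 in the 73 of cohort 1, a difference of 0.31 ± 0.0595 (log2 ± SE; limma, adjusted p = 0.000116). ENSTGUG00000004598 was also higher in cohort 2, with 22.4, 90.2 and 359 normalised counts against 5.90, 68.2 and 215 in cohort 1, by 0.69 ± 0.15 (adjusted p = 0.000521). ENSTGUG00000022225 and ENSTGUG00000020483, both of set 1, were lower in cohort 2, by -0.55 ± 0.154 and -0.56 ± 0.161 (adjusted p = 0.00855 and 0.00955). Their medians in cohorts 2 and 1 were 121.3 and 149.8 normalised counts for the former, and 7517 and 7965 for the latter. Their lowest values in cohorts 2 and 1 were 10.5 and 17.7 for the former, and 254 and 1773 for the latter. The 3 libraries that stand apart, all of cohort 2 and low in set 1, were kept in this fit. In all 4 genes the cohorts overlapped in range. With title code as a random effect 2 genes were called, and without the 3 libraries that stand apart 6, beside 7.66% and 11% of all genes tested. Whether ENSTGUG00000022225 and ENSTGUG00000020483 were among those 6 is not given here. Day 18 differences from each other age in MeHg birds were called different between cohorts for 0 genes, beside 0% of all genes tested for each. There were 3, 4 and 4 at an unadjusted p under 0.05, beside 3.25%, 8.41% and 6.58%. The MeHg difference itself, over the mean of ages, was called different between cohorts for 2 genes, beside 2.76% of all genes tested, and between the sexes for 0, beside 0%. In the latter 7 had an unadjusted p under 0.05, beside 3.77% of all genes tested.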

How the data were processed

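The authors deposited a normalised signal for each gene, its read count over a size factor of the library. Tools in the submitters' processing notes are Subread with featureCounts, R 4.0.2 and DESeq2 1.30.1. Build, annotation and strandedness: not given in the sources used here. With each library's lowest value above 0 taken as 1 read, 100% of values came out whole within a relative tolerance of 1e-06, with size factors of 0.574 to 1.75. Reads of overlapping genes or near-identical copies may be shared. Of 169 labelled libraries, 161 were analysed and 8 were not analysed here. In no pair of libraries of 1 group did the counts come near sampling noise (lowest chi-square per gene 10.4).

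A gene was tested if 15 or more libraries had a value of 10 or more, which held for 14042 of 17292. The main test was limma 3.58.1 in R 4.3.3 with trended, robust variances. It ran on log2(value + 1), a scale that understates the change of low genes. Benjamini-Hochberg adjustment ran over all genes tested, and calls have an adjusted p under 0.05. One fit held MeHg libraries alone, 4 ages; another held all 8 treatment-by-age groups. Covariates were sex, cohort and plate. edgeR 4.0.16 and DESeq2 1.42.0 on the recovered reads, RIN, extraction batch, title code within cohort and subsets of birds were alternatives. RIN is labelled for 127 libraries. The main limma fits were tested on simulated counts for the age steps in MeHg birds, for MeHg at day 18 and over the mean of ages, and for sex. The alternatives, the interactions and the contrasts of peak height, cohort and MeHg at other ages were not tested in that way. The meaning of the title codes, 34 in all, is not stated.

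The genes, tests and sets were chosen with earlier results of these data known. That MeHg birds follow the age course of controls over all genes was among these, so the calls in MeHg birds are not independent support for it. For each description up to 2 genes at each end were named: by control margin, level, smallest MeHg difference, spread, and smallest p among calls for treatment, sex and cohort. A RefSeq gene table (assembly bTaeGut7.mat) paired 0 identifiers with a symbol, so lists of marker genes were not used, and no sequence was read.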

Additional observations from a re-analysis of the deposited data

Results flagged for a closer look

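For 2 of the 49 genes the MeHg difference over the mean of ages differed between the cohorts by an interaction term (limma, adjusted over all genes tested), beside 2.76% of all genes tested. This comparison was added after the data were seen, and so few calls do not set the 49 genes apart from all genes tested. ENSTGUG00000025044 gave an interaction of 1.69 ± 0.497 (log2 ± SE, cohort 2 minus cohort 1; adjusted p = 0.0392). In cohort 1 its lowest, median and highest values were 38, 457 and 2835 normalised counts in 38 controls and 44.4, 349 and 6913 in 35 MeHg birds, a difference of -0.42 ± 0.379. In cohort 2 they were 21.3, 233 and 1923 in 40 controls and 79.2, 421 and 3733 in 48 MeHg birds, a difference of 1.254 ± 0.313 (adjusted p = 0.0129). ENSTGUG00000020849, of set 1, gave an interaction of 1.19 ± 0.357 (adjusted p = 0.0442), with -0.39 ± 0.242 in cohort 1 and 0.69 ± 0.247 in cohort 2 (adjusted p = 0.112 in the latter). Its control medians were 4440 and 4650 normalised counts in cohorts 1 and 2, and its MeHg medians 4948 and 5013. By median the MeHg birds were thus higher in both cohorts, unlike the fitted difference in cohort 1. The 3 libraries that stand apart, all of cohort 2 and low in set 1, were kept among the 88 birds of that cohort. Whether the call of this gene holds without them is not given here. With edgeR neither interaction was called. The MeHg difference was called different between the sexes for 0 genes, beside 0% of all genes tested, with 7 at an unadjusted p under 0.05, beside 3.77%.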

How the results depend on the processing

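Among the alternatives, 28 counts of genes moved by more than 1.5 times, and among values of single genes 29 lost their call, 1 gained it and 1 changed direction. The cause was not tested, apart from fewer birds in the subsets. Against day 6, males alone gave 19 calls. Against day 35, females, cohort 1 and cohort 2 alone gave 6, 8 and 2; against day 90, 10, 10 and 17; for the full peak, 3, 4 and 2. For MeHg over the mean of ages, edgeR and DESeq2 gave 5 each, title code as a random effect 0, males 0, females 1 and cohort 1 alone 1. For sex, RIN as a covariate and the libraries with a RIN gave 2 each. For cohort they gave 5 each, and title code as a random effect gave 2. For MeHg by cohort, edgeR gave 0 and no covariates 1. Shares of all genes tested are not given for the RIN settings of sex and cohort, nor for these settings of MeHg by cohort. Those counts therefore have no background beside them. The rule chose 27 of the 49 genes again with medians in place of means, 17 in control females, 31 in control birds of cohort 1, 27 in those of cohort 2 and 8 with MeHg columns. The difference of ENSTGUG00000025044 between days 18 and 90 in MeHg birds turned from -0.48 to 0.10 in cohort 2 alone. No paired analysis was possible because the labels give no replicate numbers that groups share. Title code, which for most codes recurs across ages within a treatment, was fitted within cohort as a random effect. Libraries that share a code in different cohorts were treated as unrelated in that fit. Plate or extraction batch were fitted as covariates, and the counts that these fits moved are given above. Depth of 4572638 reads or more limits genes near 10 normalised counts.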
